A study of Mus musculus with 4 samples.

Results

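The genes described here are those of sterol and fatty acid synthesis in mouse helper T cells, 35 named genes in all. Their members were found by gene symbol: a probe set (a group of probes on the array that reads 1 transcript) belonged to them where the platform annotation gave a member's symbol and no other. That gave 78 probe sets for 34 of the 35 genes, out of 18193 genes with 34945 such probe sets, and Acat2 had none. The list holds 7 measured enzymes of the mevalonate pathway, 11 enzymes from squalene to cholesterol, 9 enzymes that make, desaturate, elongate or activate fatty acids, 5 genes of control and intracellular transport, and 2 genes of cholesterol export.

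The mevalonate pathway turns acetyl-CoA into isoprenoid units, which are joined to squalene, closed into a ring and trimmed step by step to cholesterol. The transcription factors SREBP-1 and SREBP-2 are held in the endoplasmic reticulum by Insig proteins when sterols are plentiful and, when sterols are scarce, are cut and move to the nucleus, where they raise transcription of most of these enzymes. Liver X receptors respond to oxysterols and raise the export pumps ABCA1 and ABCG1. Activated T cells need both lipid classes for membrane growth, and dividing cells in general express these enzymes at a higher level than resting ones.

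RNA came from naive CD4+ T cells of mouse spleen and lymph nodes, sorted as CD44- and CD62L+, cultured for 7 days and measured on Affymetrix Mouse Genome arrays. In every group plate-bound antibodies against CD3 and CD28 activated the cells for 3 days, interleukin-2 followed for 4 days, and the same antibodies restimulated them for 2 h before harvest. Th1 cultures received interleukin-12 throughout, with an antibody against interleukin-4 during activation, and Th2 cultures received interleukin-4 throughout, with an antibody against interferon gamma during activation. The 4 groups were C57BL/6J wild type cells in Th1 culture, C57BL6-STAT4<tm1> (STAT4KO) cells in Th1 culture, C57BL/6J wild type cells in Th2 culture and B6.129S2©-STAT6<tm1Gru>/J (STAT6KO) cells in Th2 culture. STAT4 and STAT6 are the transcription factors that interleukin-12 and interleukin-4 activate, and the study asked what each contributes to gene expression in the matching culture. Each group has 1 array, so the differences below carry neither a replicate error nor a test and describe these arrays. The age of the mice, and how many gave the cells of an array, are not given in the sources used here.

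Values are log2 expression levels, and a gene is read from its brightest probe set, the one with the highest mean over the 4 arrays. A gene was called higher or lower where its level differed by at least 1 log2 unit (2-fold) and the brighter array reached 5.82, the median of all levels on the 4 arrays, which is the level minimum used throughout. All 7 measured T cell markers reached it on every array. The Stat4 probe set read 11.45 in wild type Th1 cells and 9.20 in those without STAT4. In Th2 culture it read 8.96 in wild type and 9.90 in STAT6-deficient cells, so a wild type array stood below the STAT4-deficient one. The brighter Stat6 probe set read 10.93 in wild type Th2 cells and 10.92 in those without STAT6, so it does not separate the labelled genotypes. Where the probes lie relative to the deleted parts is not known here. On the STAT6-deficient array the 3′ end of the beta-actin control read 2.08 log2 units above its 5′ end, a sign of RNA quality that ran from 0.32 to 0.85 on the other 3 arrays. The same difference for pyruvate carboxylase was 2.51 in wild type Th2 cells and 2.21 without STAT6, and for the transferrin receptor 3.94 and 4.02. For the Gapdh control it was −0.00065 in wild type Th2 cells and 0.77 without STAT6. On the Th1 arrays the Gapdh difference was −0.16 with STAT4 and 0.17 without it. The summed signal of markers of 5 other cell types was lower on the STAT6-deficient array than on its wild type. Its log2 was 8.48 against 9.51 for 7 myeloid markers, 6.96 against 8.05 for 4 dendritic cell markers and 7.09 against 8.88 for 4 mast cell markers. For 3 CD8 T and NK markers it was 7.38 against 8.85 and for 4 B cell markers 7.07 against 7.52. That of the T cell markers was 15.22 against 15.18. The erythroid and platelet markers stood at 7.98 against 7.95. Of the myeloid markers 4 reached the level minimum in Th2 wild type and 3 in STAT6-deficient cells, and of the mast cell markers 1 and 0 did. The brightest myeloid, mast cell and CD8 T and NK markers in Th2 wild type cells were Adgre1, Cpa3 and Cd8b1. They read 8.26, 8.64 and 8.54 there and 5.92, 4.90 and 6.47 without STAT6. In these lists Kit, Fcer1a, Ncr1 and Lyz2, under the minimum on both arrays, read higher without STAT6, Kit by 1.74. The B cell marker Cd79a, also under the minimum on both, read higher by 1.16. The myeloid marker Csf1r, above the minimum, read 7.07 in Th2 wild type and 7.06 without STAT6. In such bulk RNA fewer cells of a type and less RNA per cell cannot be told apart.

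In STAT6-deficient Th2 cells much of the sterol pathway read lower than in wild type cells, and far higher signal was seen for 2 of the genes, Idi2 and Acsl6. All 34 genes reached the level minimum in this comparison, and 15 of them (44.1%) were lower while 2 (5.88%) were higher. Of all 11490 genes at the minimum 19.5% were lower and 7.01% higher. The median difference was −0.86 over the 34 genes and −0.30 over all genes at the minimum. With no level minimum the members' counts were the same, against 13.6% of all genes lower and 5.49% higher. Genes of cell division were lower too: 10 of 11 measured cell cycle genes were lower with a median of −1.55. The part of these, of the actin values and of the markers given above in the differences was not tested.

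Between the wild types 26 of the 33 members at the minimum (78.8%) read lower in Th1 than in Th2 cells, as did 65.4% of all genes. Past 2-fold, 14 (42.4%) were lower and 1 (3.03%) was higher, against 25.4% and 8.14% of all 12111 genes. After quantile normalization these were 12 and 3, against 14.0% and 11.5% of all genes. The median was −0.88 over the members and −0.37 over all genes. All 11 measured cell cycle genes were lower in Th1 cells as well, with a median of −2.72, and their part was not tested. The wild types differed in the RNA controls and in markers of other cell types too. The 3′ minus 5′ difference was 0.23 in Th1 and 2.51 in Th2 cells for pyruvate carboxylase and 2.27 and 3.94 for the transferrin receptor. It was 0.32 and 0.85 for actin and −0.16 and −0.00065 for Gapdh. The log2 summed signal was 8.98 and 9.51 for the myeloid, 8.08 and 8.88 for the mast cell and 8.09 and 8.85 for the CD8 T and NK markers. Among single markers of other cell types Adgre1 (−3.26), Cpa3 (−1.68), Itgax (−1.19) and Cd8b1 (−1.13) were lower in Th1 cells. Kit (2.77) and Lyz2 (1.39) were higher. Of 5 myeloid markers at the minimum 1 was lower and 1 higher, with a median of −0.04. The part of these was not tested. This comparison shares the Th2 wild type array with the STAT6 comparison, so a high reading on that array lowers both differences at the same time.

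Without STAT4 few of the genes passed 2-fold in Th1 cells. Of 32 members at the minimum 2 (6.25%) were lower, Abca1 and Sc5d, and 1 (3.12%), Acsl6, was higher, close to the 5.34% and 6.18% of all 12608 genes. The median was −0.13, against 0.13 over all genes. Median centring gave 1 higher and 5 lower, against 2.95% and 8.92% of all genes. Centring on the array's hybridization controls gave 2 higher and 1 lower with a median of 0.25, against 18.5% and 2.64% of all genes. No direction is therefore given for the members as a whole. This comparison shares the Th1 wild type array with the one between the wild types.

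**Figure D1:**
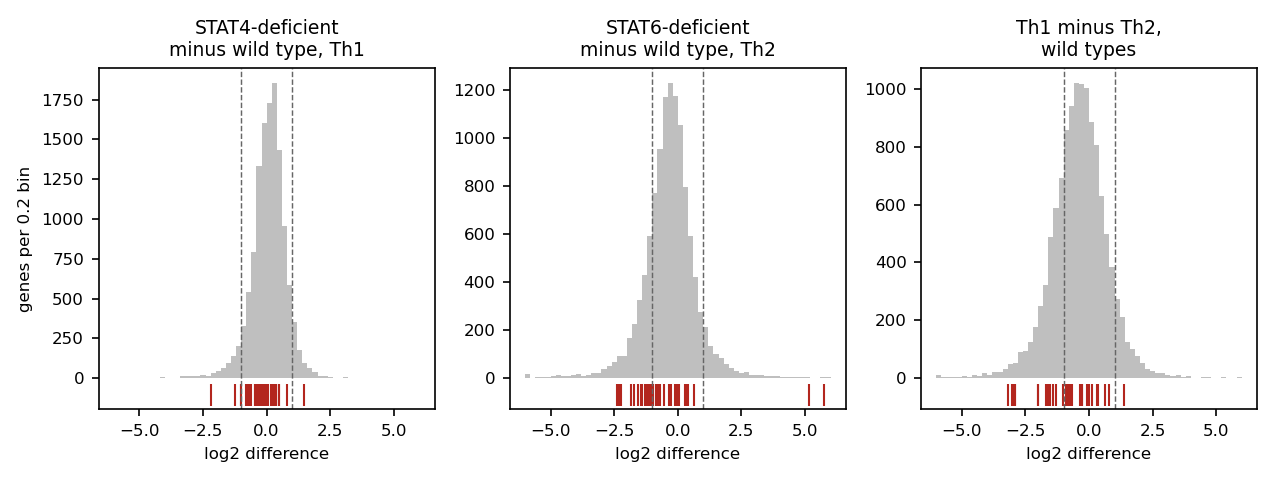
Histograms of the log2 difference of all genes at the level minimum in the 3 comparisons (values beyond 6 in either direction are placed in the end bins), with a red tick under the axis for each member and dashed lines at 1 log2 unit in either direction. Most ticks lie left of 0 in the middle and right panels (27 of 34 and 26 of 33), as do 65.7% and 65.4% of all genes. The members' medians there are −0.86 and −0.88, and 2 ticks stand far to the right in the middle panel, at 5.74 and 5.15.

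The steps from squalene to cholesterol held 7 of the 15 genes called lower without STAT6. All 11 enzymes were brightest in Th2 wild type cells, where 41.8% of all 13147 genes that reached the minimum on any array were brightest; after quantile normalization 9 of the 11 were, against 28.1% of all genes. In STAT6-deficient cells all 11 read below Th2 wild type under each scaling tried, as did 65.7% of all genes in the deposited values. As deposited, 7 (63.6%, against 19.5% of all genes) were lower by 2-fold or more, with a median of −1.19. After quantile normalization 5 were, against 12.3% of all genes and with a median of −0.97. Centred on the hybridization controls 8 were, against 22.9% of all genes and with a median of −1.31. In Th1 wild type cells 6 of the 11 (54.5%, against 25.4% of all genes) were lower than in Th2 by 2-fold or more (median −1.03), and 9 of the 11 remained below Th2 after quantile normalization.

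Lanosterol synthase, encoded by Lss, closes squalene epoxide into the first ring compound. It read 7.15 with STAT4 and 7.38 without it in Th1 culture, and 10.13 with STAT6 and 7.91 without it in Th2 culture. Th2 wild type thus stood alone at the top, 4.66-fold above the STAT6-deficient array and 7.93-fold above Th1 wild type. The dimmer Lss probe sets differed less without STAT6, by −0.79 and −1.40, and with the median over probe sets Lss passed 2-fold in neither comparison (−0.79 and −0.54). Hsd17b7, which reduces the ketone left when the C4 methyl groups are removed, had the lowest difference of this group without STAT6. Its levels were 8.12 and 7.94 in the Th1 arrays (wild type first) and 11.04 and 8.70 in the Th2 arrays (wild type first). That is a 5.08-fold difference without STAT6 and a 7.57-fold difference between the wild types, and 2 further bright probe sets of the gene differed by −1.98 and −3.16 without STAT6. Dhcr7 makes cholesterol itself from 7-dehydrocholesterol. Its levels were 6.31, 7.11, 9.21 and 6.95 in the same order, 4.80-fold lower without STAT6 and 7.46-fold lower in Th1 than in Th2 wild type cells. Nsdhl, the decarboxylating sterol dehydrogenase of the C4 demethylation complex, read 8.28, 7.98, 9.88 and 8.32. Its difference was 2.95-fold without STAT6 and 3.03-fold between the wild types. For Lss, Hsd17b7 and Nsdhl the STAT6-deficient array read between the wild types and nearer to Th1, and for Dhcr7 it read between Th1 wild type and Th1 STAT4-deficient cells.

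Of the other enzymes of this stretch, Msmo1, Ebp and Sc5d were called lower without STAT6 and were not called between the wild types. With the median over probe sets, taken on each array, Msmo1 and Sc5d did pass 2-fold between the wild types, at −1.21 and −1.63. For Sc5d this median fell on 1 dim probe set in Th1 wild type cells and on another on the other arrays. Its −1.63 therefore compares unlike probe sets. The C4 methyl oxidase gene Msmo1 read 9.90, 9.45, 10.79 and 8.96, with the STAT6-deficient array at the bottom and 3.55-fold below its wild type. Another Msmo1 probe set differed by −0.39 only. Ebp, the sterol isomerase, read 10.32, 10.29, 11.21 and 10.07, a 2.22-fold difference without STAT6 and a 1.86-fold difference between the wild types; without STAT6 its value was −0.96, short of 2-fold, after quantile normalization. Sc5d, the lathosterol oxidase, was bright in both wild types (10.64 in Th1 and 10.90 in Th2) and lower in both knockouts, at 9.41 without STAT4 and 9.71 without STAT6. The Sc5d difference without STAT4 was −1.23 on its main probe set. The median over its probe sets gave 0.66, likewise between unlike probe sets, both under the level minimum on these arrays. Its dimmer probe sets differed by 1.45 and 0.11 without STAT4. The Sc5d difference without STAT6 (−1.19) was −0.97 after quantile normalization. Cyp51, which removes the C14 methyl group, differed by −0.96 without STAT6, just under the 2-fold limit, and Sqle, the squalene epoxidase, by −0.72 (10.60, 10.67, 10.90 and 10.18). The sterol reductase gene Tm7sf2 differed by −0.35 without STAT6 and by −1.03 between the wild types (−0.53 after quantile normalization). Squalene synthase, Fdft1, differed by −0.80 without STAT6 and −1.65 between the wild types. Its probe sets disagreed between the wild types, from −1.72 to 1.25, with −0.65 as the median over probe sets.

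**Figure D2:**
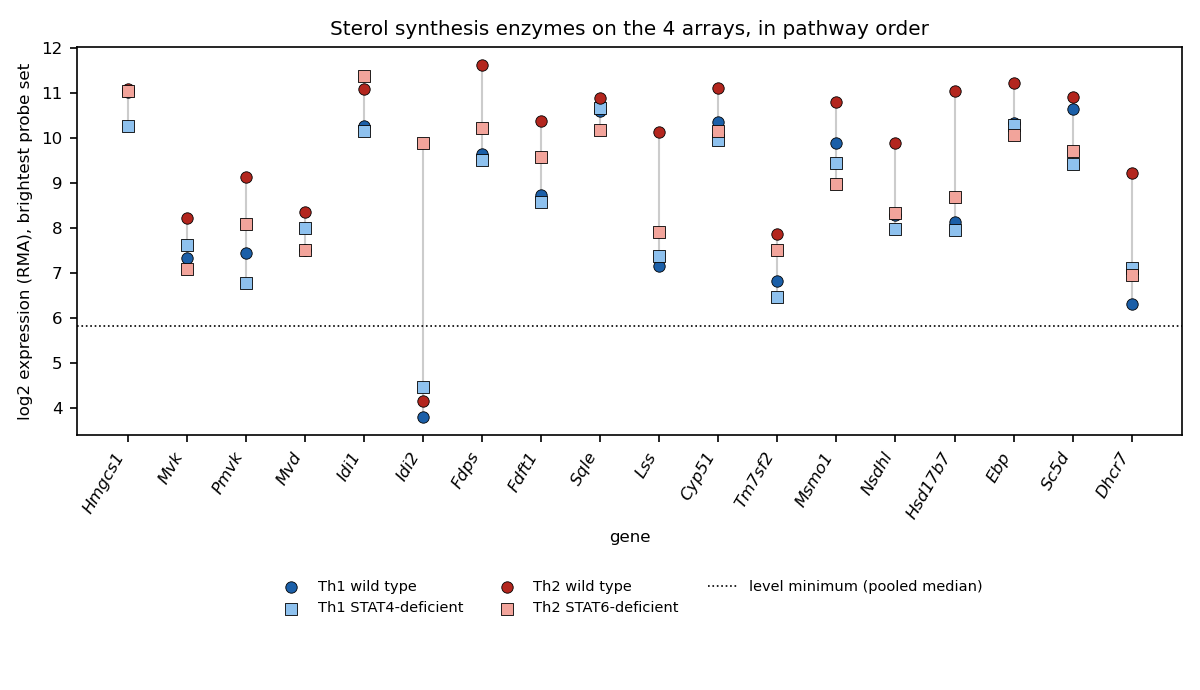
Log2 expression of the 18 measured sterol synthesis enzymes in pathway order, with a circle for each wild type array, a square for each knockout array and a grey line over the range; levels of different genes are not comparable. The Th2 wild type circle is at the top for all 11 genes from Fdft1 to Dhcr7, alone by 2 log2 units or more for Lss, Hsd17b7 and Dhcr7, and Idi2 is above the dotted level minimum on the STAT6-deficient array only.

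The start sites of these genes were compared because the members stood together. RefSeq (GRCm38.p6) gave windows from 250 bases before to 50 bases after a start site for 26 of the 34 genes, 35 windows in all; Sqle, Fdps, Fdft1, Scd1, Scd2, Fads1, Stard4 and Abcg1 were not among them. Below are 3 enzymes that were lower without STAT6, then Hmgcs1, an early enzyme that was not, and Idi2, which was far higher. Each is written 5′ to 3′ in the direction of the gene, and capitals mark CCAAT (the box bound by NF-Y, a usual partner of SREBPs), CACGTG (the E-box) and TCACNCCAC (a form of the sterol regulatory element), on either strand.
Hsd17b7, chr1:169969156-169969455, minus strand: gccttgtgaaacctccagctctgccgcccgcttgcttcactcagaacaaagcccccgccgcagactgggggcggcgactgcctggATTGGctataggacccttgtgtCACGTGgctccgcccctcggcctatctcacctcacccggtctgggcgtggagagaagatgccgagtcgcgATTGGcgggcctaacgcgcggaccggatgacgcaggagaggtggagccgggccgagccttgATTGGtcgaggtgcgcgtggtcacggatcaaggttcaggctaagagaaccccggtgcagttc
Nsdhl, chrX:72918271-72918570, plus strand: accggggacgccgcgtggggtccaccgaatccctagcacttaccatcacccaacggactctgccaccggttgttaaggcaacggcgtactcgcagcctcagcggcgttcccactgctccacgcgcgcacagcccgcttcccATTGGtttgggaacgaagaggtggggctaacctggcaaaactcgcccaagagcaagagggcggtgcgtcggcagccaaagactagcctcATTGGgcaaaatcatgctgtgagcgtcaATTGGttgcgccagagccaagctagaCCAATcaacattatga
Lss, chr10:76531355-76531654, plus strand: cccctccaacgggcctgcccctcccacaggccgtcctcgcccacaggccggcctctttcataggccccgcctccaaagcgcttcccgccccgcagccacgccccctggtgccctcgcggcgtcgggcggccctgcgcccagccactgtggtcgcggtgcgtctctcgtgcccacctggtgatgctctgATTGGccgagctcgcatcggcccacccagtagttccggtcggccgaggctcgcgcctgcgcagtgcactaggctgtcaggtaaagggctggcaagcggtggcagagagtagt
Hmgcs1, chr13:119690101-119690400, plus strand: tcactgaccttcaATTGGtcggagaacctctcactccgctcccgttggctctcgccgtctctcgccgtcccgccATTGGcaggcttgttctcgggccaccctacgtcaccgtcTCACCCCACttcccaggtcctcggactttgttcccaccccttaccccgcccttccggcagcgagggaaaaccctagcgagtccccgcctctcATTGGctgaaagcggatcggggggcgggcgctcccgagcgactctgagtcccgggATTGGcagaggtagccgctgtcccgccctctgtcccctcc
Idi2, chr13:8952613-8952912, plus strand: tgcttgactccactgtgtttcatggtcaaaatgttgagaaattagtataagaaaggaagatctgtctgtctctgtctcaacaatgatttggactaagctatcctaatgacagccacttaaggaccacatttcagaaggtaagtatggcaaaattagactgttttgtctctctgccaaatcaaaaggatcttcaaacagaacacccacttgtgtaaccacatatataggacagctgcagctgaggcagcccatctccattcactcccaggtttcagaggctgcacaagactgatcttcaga
The Hsd17b7 window held CCAAT 3 times and CACGTG 1 time, the Nsdhl window held CCAAT 4 times and the Lss window 1 time. Hmgcs1 held CCAAT 4 times and was the only gene with TCACNCCAC among the members' windows, and the Idi2 window held none of the motifs searched. Over the members CCAAT was in 23 of 35 windows (65.7%), against 37.4% of 32851 windows of all genes. It was found in windows of genes that differed and of genes that did not. CACGTG was in 5 of the 35 windows (all windows 7.15%) and TCACNCCAC in 1 (all windows 1.24%). The STAT motif TTCNNNGAA was in the window of Ebp and TTCNNNNGAA in 1 window of Srebf1, against 8.30% and 6.95% of all windows; none of these motifs overlapped another in the windows printed. A match describes letters in a window and shows no binding.

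The mevalonate steps were less uniform. Fdps, which joins isoprenoid units to farnesyl diphosphate, read 9.64 with STAT4 and 9.51 without it in Th1 culture, and 11.63 with STAT6 and 10.22 without it in Th2 culture. It was 2.65-fold lower without STAT6 and 3.97-fold lower in Th1 than in Th2 wild type cells. With the median over probe sets the difference without STAT6 was −0.99, but the other Fdps probe set was under the level minimum on all 4 arrays. The phosphomevalonate kinase gene Pmvk read 7.45, 6.77, 9.14 and 8.09, with differences of −1.05 without STAT6 and −1.69 between the wild types. Mevalonate kinase, Mvk, read 7.34, 7.63, 8.22 and 7.09. Its call without STAT6 (−1.12), like that of Pmvk, was lost after median centring (−0.99 for Mvk, −0.91 for Pmvk) and after quantile normalization. As deposited 3 of the 7 mevalonate enzymes (42.9%, against 19.5% of all genes) were lower without STAT6. Under each of these scalings 1 of the 7 was, near the 15.6% and 12.3% of all genes. Mvd, the decarboxylase that follows them, differed by −0.85 both without STAT6 and between the wild types.

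Hmgcs1, which encodes the synthase at the head of the pathway, was nearly level across 3 of the arrays, at 11.02 in Th1 wild type, 11.09 in Th2 wild type and 11.04 in STAT6-deficient cells, and lower at 10.26 without STAT4. Its other bright probe sets ran from −0.89 to −0.15 without STAT6. Idi1, the widely expressed isopentenyl diphosphate isomerase, was higher in both Th2 arrays (11.09 and 11.37) than in the Th1 arrays (10.25 and 10.15), and differed by 0.29 without STAT6 and by −0.83 between the wild types.

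Idi2, which encodes a second isopentenyl diphosphate isomerase, was the only enzyme of sterol synthesis called higher in any of the 3 comparisons. It read 3.78 in wild type Th1 cells, 4.47 in Th1 cells without STAT4 and 4.14 in wild type Th2 cells, all under the level minimum, and 9.89 in STAT6-deficient cells. The difference was 53.5-fold as read, and 16.8-fold when the wild type is set at the level minimum. It rests on 1 probe set. In the gene order of RefSeq, Idi1 and Gtpbp4 are the nearest measured genes on its sides, and they differed by 0.29 and 0.84 without STAT6.

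Acsl6, a long-chain acyl-CoA synthetase that activates fatty acids, was the other gene far above wild type. Its levels were 6.69 with STAT4 and 8.17 without it in Th1 culture, and 6.39 with STAT6 and 11.54 without it in Th2 culture. It was higher in both knockouts than in their wild types, 2.78-fold without STAT4 and 35.5-fold without STAT6. A dimmer probe set differed by 0.58 and 2.30 in the same comparisons. Acsl6 lies beside the cytokine genes Il3 and Csf2, which differed by 0.63 and 1.06 without STAT6 and by −0.26 and −2.52 without STAT4. On its other side Meikin was under the level minimum on all 4 arrays, and Fnip1 differed by −0.21 without STAT6.

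**Figure D3:**
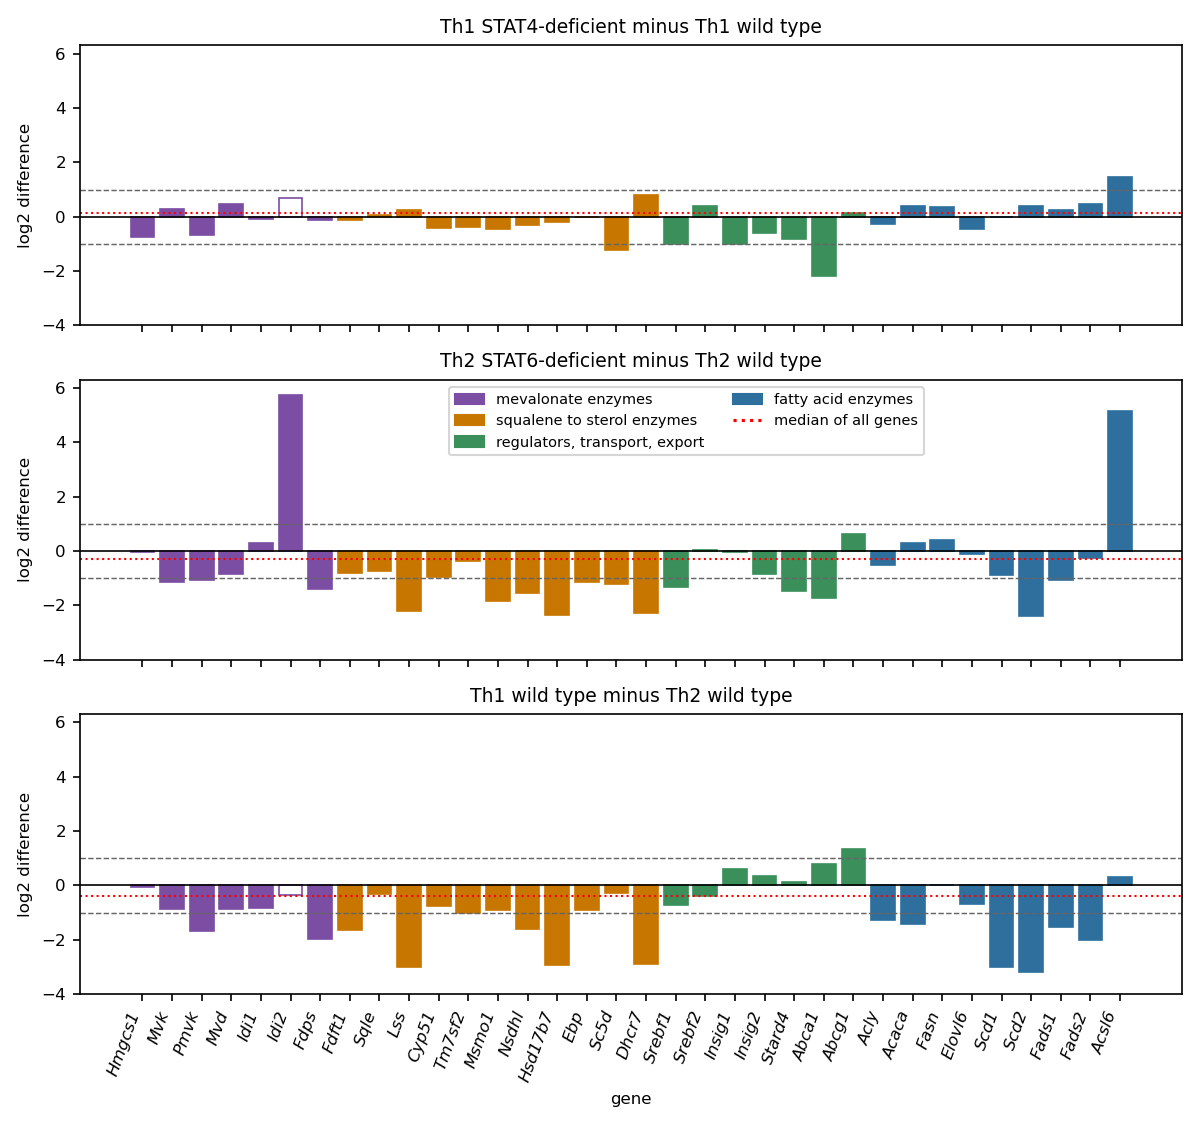
Bars give the log2 difference of each of the 34 genes, in role groups set by colour, for STAT4 loss, STAT6 loss and Th1 minus Th2 wild type; an open bar is a gene under the level minimum, dashed lines mark 2-fold and the dotted line the median of all genes. The middle panel shows bars below −1 from Lss to Dhcr7 for 7 genes and the upward bars of Idi2 (5.74) and Acsl6 (5.15), and the top panel shows few bars past 2-fold.

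The fatty acid enzymes build chains from acetyl-CoA, lengthen and desaturate them. Of the 9 enzymes 6 (66.7%, against 25.4% of all genes) were lower in Th1 than in Th2 wild type cells, with a median of −1.43. Without STAT6, 2 (22.2%) were lower and 1 (11.1%) was higher, near the 19.5% and 7.01% of all genes, with a median of −0.26. Quantile normalization moved that median to 0.05, and taking the median over probe sets moved it to −0.71. With the latter 4 of the 9 were lower (Acly at −1.03, Scd1 at −1.30 and Fads2 at −1.04 among them), against 19.5% of all genes. Between the wild types 4 of the 8 at the minimum were lower with that rule, against 22.6% of all genes. The largest differences between the wild types were in the stearoyl-CoA desaturases, which put the double bond into saturated fatty acids. Scd2 read 8.79 with STAT4 and 9.17 without it in Th1 culture, and 11.96 with STAT6 and 9.56 without it in Th2 culture. It was 9.02-fold lower in Th1 than in Th2 wild type and 5.27-fold lower without STAT6, and a further bright probe set differed by −3.19 without STAT6. Scd1 read 5.74 on both Th1 arrays, under the level minimum, and 8.76 and 7.89 on the Th2 arrays. Its difference between the wild types was 8.09-fold as read and 7.68-fold above the level minimum. Without STAT6 its main probe set differed by −0.87 and a dimmer one by −1.73. So the STAT6-deficient array read near the Th1 arrays for Scd2 and not for Scd1.

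The desaturases of polyunsaturated fatty acids also differed from each other without STAT6 on their main probe sets. With the median over probe sets the order turned, at −0.71 for Fads1 and −1.04 for Fads2. Fads1 (delta-5) read 6.47, 6.72, 7.99 and 6.94 in the same order of arrays, and its difference without STAT6 was −1.05. That call was lost after median centring, quantile normalization and with the median over probe sets, and the last also ended its call between the wild types (−0.83). Fads2 (delta-6) read 6.16, 6.64, 8.16 and 7.90 and kept most of its Th2 level without STAT6 (−0.26), while a dimmer probe set differed by −1.04. The enzymes that feed the pathway were higher in both Th2 arrays. Acly, which makes cytosolic acetyl-CoA from citrate, read 11.26 and 10.98 in the Th1 arrays, 12.54 in Th2 wild type and 12.01 in STAT6-deficient cells. Its 4 probe sets at the level minimum ran from −2.04 to −0.02 without STAT6. Acaca, acetyl-CoA carboxylase, read 7.76, 8.14, 9.19 and 9.50, so it was 2.69-fold lower in Th1 than in Th2 wild type cells and 0.31 log2 units higher without STAT6. The former did not reach 2-fold after quantile normalization (−0.83) or with the median over probe sets (−0.66). The other Acaca probe set was under the level minimum on all 4 arrays. Fatty acid synthase itself, Fasn, was level in the wild types (10.78 in both) and read 11.12 without STAT4 and 11.18 without STAT6. The elongase gene Elovl6 differed by less than 2-fold in each comparison on its main probe set.

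**Figure D4:**
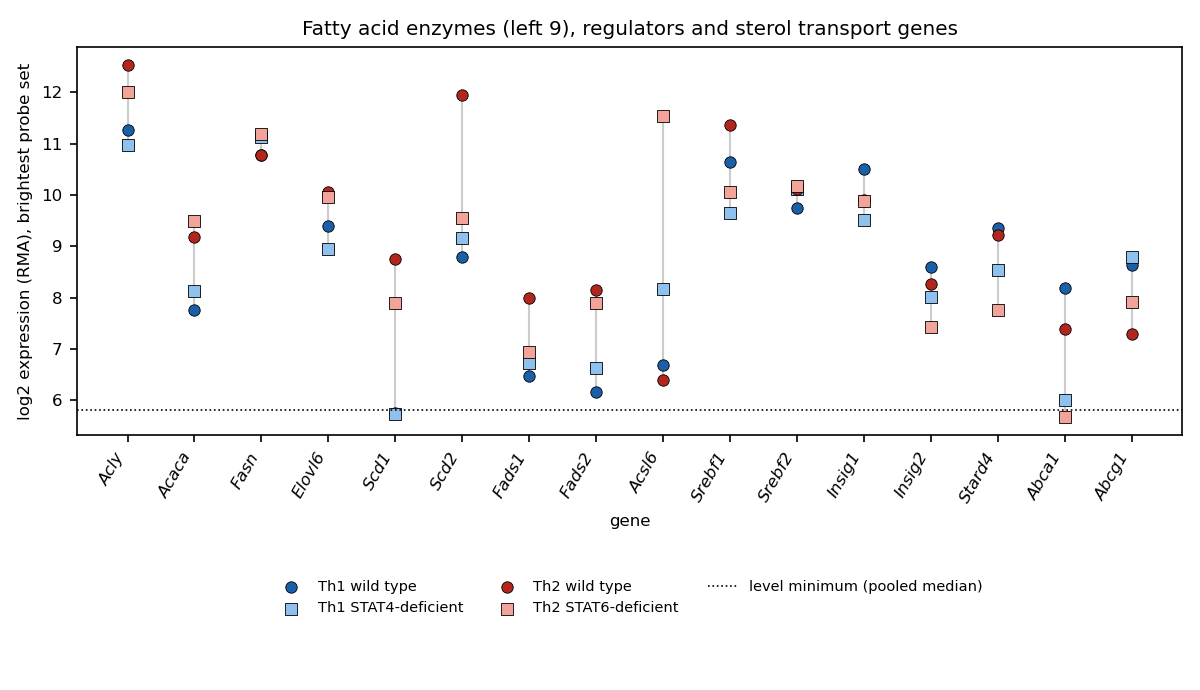
Log2 expression of the 9 fatty acid genes (left) and the 7 genes of control, transport and export (right) on the 4 arrays, drawn as circles for wild type and squares for knockouts; the dotted line is the level minimum. Acly, Acaca, Scd1 and Fads2 are higher on both Th2 arrays than on both Th1 arrays, Scd2 has Th2 wild type alone at the top, and Abca1 is lower on both knockout arrays than on both wild type arrays.

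Among the genes of control, Srebf1 differed between the arrays by more than Srebf2. Srebf1, which encodes SREBP-1, read 10.65 with STAT4 and 9.66 without it in Th1 culture, and 11.37 with STAT6 and 10.07 without it in Th2 culture. Both knockouts were below their wild types, with differences of −0.99 and −1.30, and the former did not reach the 2-fold limit. Srebf2, which encodes SREBP-2, stayed between 9.74 and 10.17 on all 4 arrays. Insig1, the sterol-responsive retention protein and itself an SREBP target, read 10.52, 9.52, 9.90 and 9.88. It was highest in Th1 wild type cells and differed by −0.02 without STAT6. Insig2 differed by −0.60 without STAT4 and −0.84 without STAT6 on its main probe set. In the same comparisons its next probe set differed by −0.12 and −0.36 and its dimmest by −1.58 and −1.02. Stard4, a cytosolic cholesterol carrier, read 9.35, 8.54, 9.22 and 7.75 and was 2.76-fold lower without STAT6, with all 3 of its probe sets past 2-fold. Its dimmer probe sets were brightest in Th2 wild type cells. They differed by −0.96 and −1.09 between the wild types and by −0.11 and 0.24 without STAT4.

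The export pumps went different ways. Abca1 read 8.18 with STAT4 and 6.01 without it in Th1 culture, and 7.40 with STAT6 and 5.66 without it in Th2 culture. Both knockouts were thus lower than both wild types, 4.50-fold without STAT4 and 3.33-fold without STAT6 (2.99-fold above the level minimum). The dimmer Abca1 probe sets, under the minimum, differed by −0.67 and −0.46 without STAT4 and by −0.49 and −0.88 without STAT6, so neither call held with the median over probe sets. Abcg1 read 8.64 and 8.80 in the Th1 arrays and 7.28 and 7.91 in the Th2 arrays. It was the only member called higher in Th1 than in Th2 wild type cells (2.57-fold). That call was lost after centring on the hybridization controls and with the median over probe sets. The dimmer Abcg1 probe set was under the level minimum on both wild type arrays.

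Agreement between probe sets of a gene gives a technical view of these differences. Of the 78 probe sets, 66 reached the level minimum in the STAT6 comparison, where 27 were lower and 3 higher by 2-fold or more, against 20.4% and 7.58% of all 20225 probe sets at the minimum. Of the 17 called genes 9 had several probe sets at the minimum. In all 9 of these the probe sets lay on the same side, and in 5 every one passed 2-fold, the exceptions being Fads1, Lss, Msmo1 and Mvk. A further 5 genes that were not called, Insig2, Fdft1, Acly, Scd1 and Fads2, had a probe set past 2-fold. Between the wild types 27 of 64 probe sets were lower and 2 higher, against 24.2% and 9.24% of all 21212. Of 8 called genes with several at the minimum 7 had them all on 1 side and 4 had every one past 2-fold. Probe sets read different stretches of a transcript, and the actin difference of 2.08 belongs to the STAT6-deficient array; the part of either in the spread was not tested.

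**Figure D5:**
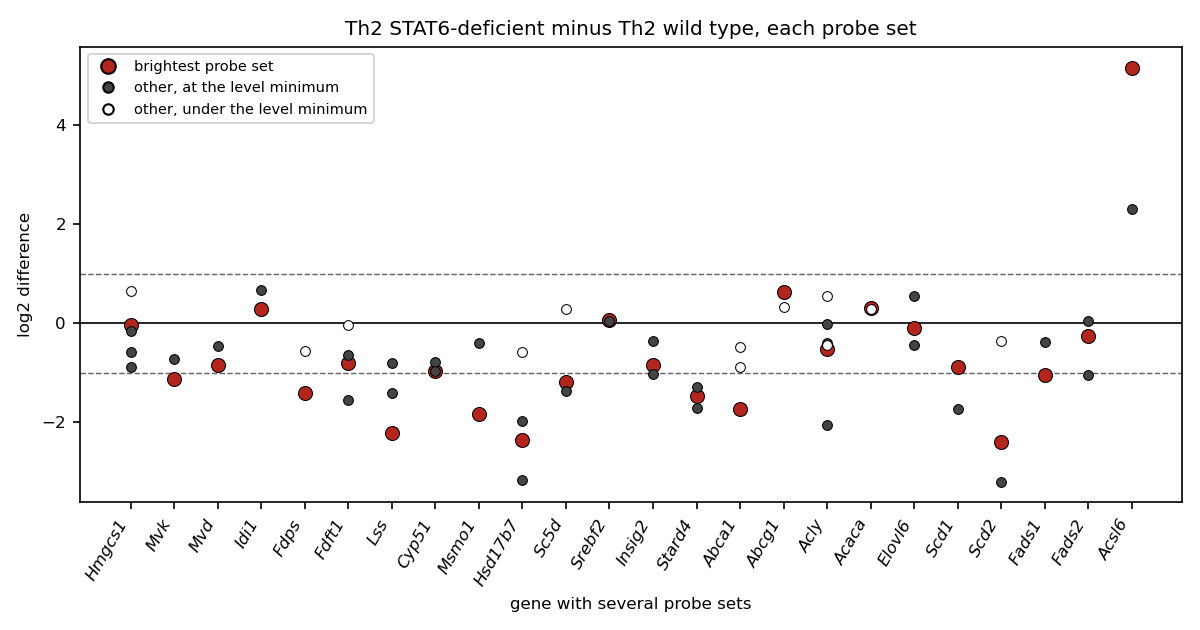
Log2 difference of every probe set of the 24 genes with several, Th2 STAT6-deficient minus Th2 wild type, with the brightest probe set in red, others at the level minimum in grey and those under it open; dashed lines mark 2-fold. The probe sets of Hsd17b7 at the level minimum run from −3.16 to −1.98 and those of Stard4 from −1.71 to −1.29, while those of Acly run from −2.04 to −0.02.

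Other genes that SREBPs control or that serve the same steps were taken from a list of 21, of which 19 were measured. Without STAT6, 4 of the list (21.1%) were lower and 0 were higher, near the 19.5% and 7.01% of all genes, and its median was −0.37. These were the elongase genes Elovl7 (−2.17) and Elovl5 (−1.33), Mid1ip1, which encodes an activator of acetyl-CoA carboxylase (−1.32), and malic enzyme, Me1, a source of NADPH (−1.11). Between the wild types 5 (26.3%, near the 25.4% of all genes) were lower and 0 higher in Th1 cells (median −0.54), led by Tmem97 (−1.50) and Elovl1 (−1.22), but after quantile normalization 0 were lower and 1 was higher. Scap, which escorts SREBPs out of the endoplasmic reticulum, was 1.12 log2 units lower in Th1 than in Th2 wild type cells. Without STAT4 the citrate carrier gene Slc25a1 (1.54) and Scap (1.05) were higher and Acsl4 (−1.12) was lower, with a list median of −0.00034.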

How the data were processed

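The 4 arrays, 1 for each group, were analysed from the authors' deposited log2 expression values per probe set, made with RMA, which corrects background and summarises each probe set, according to the submitters' processing notes; no version is named and whether the arrays were processed together is not given in the sources used here. The array medians ran from 5.63 to 6.01, so the deposited columns do not share 1 distribution. The number of arrays limits the precision.

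Of 45037 probe sets outside the 64 controls, a platform annotation named 1 gene for 34945 and several for 932. A RefSeq gene table (GRCm38.p6) served to update symbols; it matched 34741 probe sets and renamed none of the members'. A gene was its brightest probe set. The comparisons were STAT4-deficient minus wild type in Th1 culture, STAT6-deficient minus wild type in Th2 culture, and Th1 minus Th2 wild type, with the call rule given in the report and no test. Alternatives were 3 other scalings (median centring, quantile normalization, centring on 18 hybridization control probe sets) and another level minimum or none. The median over probe sets, taken on each array, and symbols as annotated were further alternatives. Every member may be named; genes of other lists are those called with the largest difference, up to 4 per list and direction, besides Stat4, Stat6, the neighbours of Idi2 and Acsl6 and the cell markers. The members and lists were chosen with earlier results of these data known. Motifs were searched in RefSeq promoter windows. Scripts ran in Python 3.11.15 with numpy 2.4.6 and pandas 2.3.3 and were tested on simulated data. Of the B, CD8 T and NK, and erythroid and platelet marker lists, 2, 2 and 1 measured markers reached the level minimum in Th2 wild type cells.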

Additional observations from a re-analysis of the deposited data

How the results depend on the processing

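For STAT6 loss both counts of members stayed within 1.5 times under the 7 alternatives, with 10 to 16 lower and 2 higher. Its median was −0.72 with median centring, −0.54 with quantile normalization and −0.98 when centred on the hybridization controls. Of its 15 lower calls 7 held under the 3 other scalings and the median over probe sets, as did both higher calls. Among these Dhcr7, Srebf1, Nsdhl and Idi2 have 1 probe set each, so the median over probe sets could not change their values. Between the wild types 9 of 14 lower calls held in the same way, among them Dhcr7, Pmvk and Nsdhl with 1 probe set each. There, quantile normalization gave 3 members higher and a median of −0.48 (all genes 0.0053). Centring on the hybridization controls gave 0 higher, 22 lower and a median of −1.26, while all genes moved to 3.96% higher, 40.6% lower and a median of −0.79. The median over probe sets gave 0 higher. For STAT4 loss median centring gave 5 lower (all genes 8.92%) and a median of −0.37, and quantile normalization a median of −0.030. Centring on the hybridization controls gave 2 higher, 1 lower and a median of 0.25, against 18.5% and 2.64% of all genes and a median of 0.53. The median over probe sets gave 0 lower and a median of 0.017, with Sc5d at 0.66 between unlike probe sets. The level minimum and the symbols as annotated moved no count by over 1.5 times and no median by 0.1. Where a scaling moved a value the cause was not tested. No paired analysis was possible because each group has 1 array. With 1 array per group no replicate could be left out, and readings under the level minimum have no detection call here.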

Other observations

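Fatty acid oxidation genes, which burn rather than build fatty acids, differed in the same comparisons. Of 9 measured genes 7 (77.8%, against 19.5% of all genes) were lower without STAT6, with a median of −1.38. Leading them were the carnitine palmitoyltransferase gene Cpt1a (−1.97), Hadhb (−1.78), Cpt2 (−1.68) and Acadl (−1.59). After quantile normalization 5 were lower (all genes 12.3%), as were 5 with the median over probe sets (all genes 19.5%). Between the wild types 6 of the 9 (66.7%, against 25.4% of all genes) were lower in Th1 cells (median −1.23), among them Cpt2 (−2.84) and Cpt1a (−2.21). After quantile normalization 2 were (all genes 14.0%), and 4 with the median over probe sets (all genes 22.6%). Without STAT4 Cpt2 was higher (1.29) and Acadl lower (−1.16).

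Of 7 measured genes for liver X receptor action, sterol binding and lysophospholipid acylation, 2 were lower in STAT6-deficient than in wild type Th2 cells and lower in Th1 than in Th2 wild type cells. That share (28.6%) is near the 19.5% and 25.4% of all genes, and only the values are given. Lpcat3, which puts polyunsaturated chains into phospholipids, read 9.44 with STAT4 and 9.36 without it in Th1 culture, and 11.59 with STAT6 and 9.22 without it in Th2 culture. Osbp, an oxysterol-binding protein gene, read 8.95, 9.11, 10.50 and 9.08. Ch25h, the cholesterol 25-hydroxylase gene, was lower without STAT4 (−1.25). The STAT6-deficient and Th2 wild type arrays of these values are those with the actin and cell cycle differences given above, whose part was not tested.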
